A study of Homo sapiens with 2 samples.

Results

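The 9 genes described here encode RNA-binding proteins that recognise AU-rich, U-rich or Pumilio elements, mostly in the 3′ untranslated regions of mRNAs: ZFP36, ZFP36L1, ZFP36L2, ELAVL1, KHSRP, HNRNPD, TIA1, TIAL1 and PUM2. They were chosen by name, and every probe set annotated to 1 of them alone was taken, which gave 40 of the 54675 probe sets of the expression array. The study compared 2 lines derived from HCT116, a human colorectal cancer line, with 1 array of total RNA each. HCT116-CPEB4 over-expresses CPEB4 from a lentivirus, per its labels. HCT116-GFP is labelled wild type and has GFP in its name, and the labels leave unsaid whether it received a vector of its own. Both were grown in RPMI-1640 with fetal calf serum. With a single array a line, no difference below has a replicate check or a p-value, and precision is limited by that number of arrays.

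The stability and translation of many short-lived mRNAs depend on proteins bound to their 3′ ends. ZFP36, also called tristetraprolin, and its relatives ZFP36L1 and ZFP36L2 bind AU-rich elements through zinc fingers and recruit the CCR4-NOT deadenylase, which shortens the poly(A) tail and starts decay. KHSRP and HNRNPD (AUF1) also bind AU-rich mRNAs and mostly promote their decay, whereas ELAVL1 (HuR) binds AU-rich and U-rich sites and mostly stabilises. TIA1 and TIAL1 bind U-rich sequence, silence translation in stress granules and act in splicing, and PUM2 is a Pumilio repressor with its own recognition element. CPEB4 belongs to another family, which binds U-rich cytoplasmic polyadenylation elements, and in mouse macrophages it has been described to counteract tristetraprolin on shared mRNAs.

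The deposited values are linear intensities, and each difference was taken on the log2 scale, as HCT116-CPEB4 minus HCT116-GFP. The array labelled HCT116-CPEB4 showed no excess of CPEB4 mRNA: at the brightest CPEB4 probe set it read 628, against 731 on the HCT116-GFP array, and the others read 558 against 758, 174 against 183 and, dimmer, 21.0 against 60.1 in the same pairing. Where in the transcript these probe sets lie is not stated in the labels or tables used, and a probe set outside the introduced sequence would check nothing, so each direction below rests on the labels and the first sample is called the CPEB4-labelled array. Interferon-induced mRNA stood far apart, with IFIT1 at 5865 on the CPEB4-labelled array and 444 on the GFP array. Of 9 colon epithelial markers, 7 lay above the dim filter (60.8 intensity units, the 50th percentile of all values) on both arrays, EPCAM reading 20717 on the CPEB4-labelled array and 20994 on the GFP array. The colon markers that did not were VIL1, at 77.0 on the CPEB4-labelled array and 32.2 on the GFP array, and LGALS4, which for HCT116-CPEB4 read 32.4, against 19.7 for GFP. Summed markers of fibroblasts and stroma were 1499 on the CPEB4-labelled array and 1108 on the GFP array. Most of both sums was COL1A1, at 1292 on the CPEB4-labelled array and 949 on the GFP array. It was the only 1 of 6 above the filter on both. Markers of blood summed to 325 for HCT116-CPEB4 and 392 for HCT116-GFP (1 of 5). Those of endothelium summed to 131 for HCT116-CPEB4 and 232 for HCT116-GFP (1 of 4). The ratio of 3′ to 5′ signal of ACTB, which grows with RNA degradation, was 10.3 on the CPEB4-labelled array and 8.23 on the GFP array. For GAPDH it was 1.04 on the CPEB4-labelled array and 0.989 on the GFP array. The part of these values in the differences below was not tested.

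All 9 genes were measured on both arrays, and none differed by 1.5-fold or more at its brightest probe set. Among all 13704 genes kept by the filter, 8.22% were higher and 8.3% lower by that fold, and 3.55% were higher and 3.85% lower by 2-fold or more. These shares take in dimmer genes, which vary more. KHSRP was the highest at 0.43 (1.35-fold), and PUM2 and ZFP36L1 were the lowest at −0.36 each. In order from the highest, the members were KHSRP (0.43), HNRNPD (0.28), TIA1 (0.15), TIAL1 (0.14), ZFP36L2 (0.02), ELAVL1 (−0.07), ZFP36 (−0.24), ZFP36L1 (−0.36) and PUM2 (−0.36). Neighbours in this order lay within the spread between bright probe sets of a single gene, which had a pooled SD of 0.21. The median of the 9 was 0.02, beside 0.00 (0.000897) over all kept genes, with 5 above 0 and 4 below, and was −0.0814 with the mean over each gene's probe sets. In RNA from a whole culture, a change in the share of cells and a change in RNA per cell cannot be told apart.

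Of the 40 member probe sets, 31 passed the filter, which asks that the higher of the 2 intensities reach 60.8, and 28 of these did so on both arrays. The 9 that did not pass read between 3.02 and 54.5. The median of the 31 was −0.06, and 14 of them were above 0 and 17 below. None was 2-fold higher or lower, where 4.6% and 4.48% of all 25010 kept probe sets were. By 1.5-fold, 1 was higher and 1 lower, beside 10.2% and 9.46% of all kept probe sets. Most member probe sets are bright, and bright probe sets vary less: among the 11696 with both arrays at or above 377, the 75th percentile of all values, 1.84% were higher and 1.5% lower by 1.5-fold. Of the 20 member probe sets in that bright range, 1 was higher and 0 lower.

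**Figure D1:**
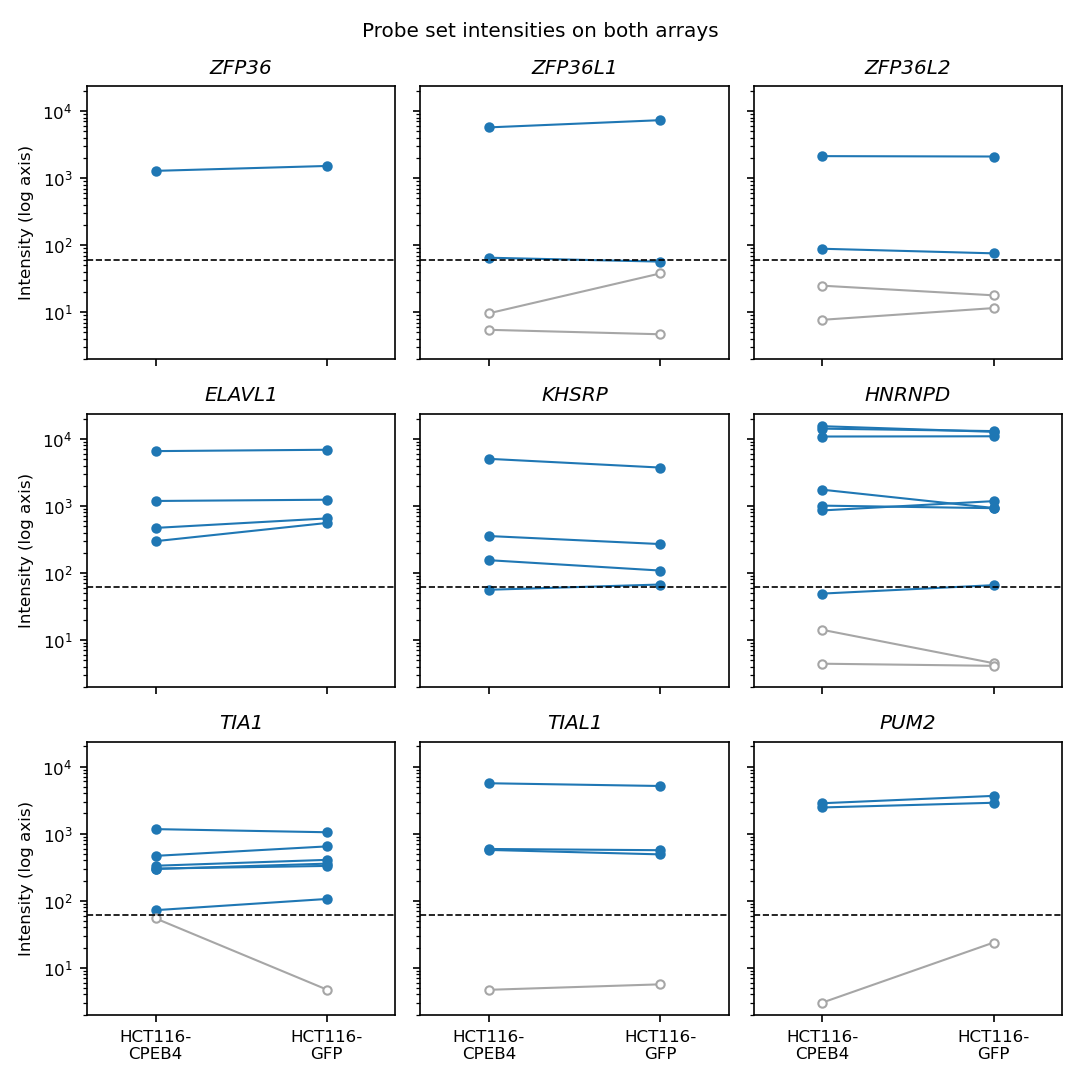
Intensity (log axis) of each of the 40 member probe sets, with the CPEB4-labelled array on the left and the GFP array on the right of each panel. Blue lines are the 31 probe sets kept by the dim filter (dashed line, 60.8) and grey lines with open points are the 9 under it. The brightest lines of every gene are close to level.

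The brightest probe sets of the tristetraprolin family were lower on the CPEB4-labelled array for ZFP36 and ZFP36L1 and level for ZFP36L2. ZFP36, the founding member, has a single probe set (201531_at), which read 1284 on the CPEB4-labelled array and 1519 on the GFP array, a difference of −0.24 (0.845-fold). ZFP36L1 read 5715 on the CPEB4-labelled array and 7318 on the GFP array at its brightest probe set (211962_s_at), a difference of −0.36. ZFP36L1 and ZFP36L2 are known in mouse for holding developing lymphocytes in quiescence. The other kept probe set of ZFP36L1 (211965_at) went the other way at the edge of the filter, with 65.0 on the CPEB4-labelled array and 56.8 on the GFP array (0.19), so the direction of ZFP36L1 rests on its brightest probe set. ZFP36L2 read 2129 on the CPEB4-labelled array and 2101 on the GFP array at its brightest probe set (201368_at), a difference of 0.02. Its second (201369_s_at) read 88.4 on the CPEB4-labelled array and 75.5 on the GFP array (0.23), so both kept probe sets were level or higher. The 4 probe sets of ZFP36L1 and ZFP36L2 under the filter read between 4.69 and 37.9, with differences from −1.97 to 0.48 that rest on dim values.

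ELAVL1 was lower at all 4 of its probe sets, by unequal amounts. The brightest (201726_at) read 6564 on the CPEB4-labelled array and 6875 on the GFP array, a difference of −0.07. The next (201727_s_at) read 1184 on the CPEB4-labelled array and 1237 on the GFP array (−0.06). The dimmer pair differed more. Of these, 244660_at read 469.7 on the CPEB4-labelled array and 650.3 on the GFP array (−0.47), and 227746_at read 298 on the CPEB4-labelled array and 556 on the GFP array (−0.90). Probe set 227746_at was thus the only kept member probe set lower by 1.5-fold or more. The gap of 0.84 between the ELAVL1 probe sets was close to the median gap of 0.83 over the 1166 genes with 4 or more kept probe sets. That median also takes in dimmer probe sets, which vary more, while all 4 of ELAVL1 read 298 or more on both arrays. The tables used do not say where in the ELAVL1 transcripts each probe set reads, so a difference between transcript forms was not tested.

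KHSRP had the largest positive difference among the members' brightest probe sets. It carries KH domains, recruits decay enzymes to AU-rich mRNAs and takes part in the maturation of some microRNA precursors. Its brightest probe set (204372_s_at) read 5033 on the CPEB4-labelled array and 3732 on the GFP array, a difference of 0.43 at the 87.4th percentile of all kept genes. These genes include dimmer ones, which vary more. Probe sets with both arrays at or above 377 had an interquartile range of −0.17 to 0.16. The next KHSRP probe set (212303_x_at) read 355 on the CPEB4-labelled array and 269.7 on the GFP array (0.40). The third (227555_s_at) read 155 on the CPEB4-labelled array and 109 on the GFP array (0.51), so the 3 brightest were higher by like amounts. The last (204371_s_at) read 56.1 on the CPEB4-labelled array, under the filter, and 67.2 on the GFP array (−0.26). All KHSRP probe sets have IDs ending in _s_at or _x_at, which mark probes that can match several transcripts or genes.

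HNRNPD, whose alternative exons give several AUF1 protein isoforms, had the most probe sets of the members and the widest gap between kept ones. Its brightest (200073_s_at) read 15443 on the CPEB4-labelled array and 12724 on the GFP array, a difference of 0.28. The second (209330_s_at) read 14198.5 on the CPEB4-labelled array and 13057 on the GFP array (0.12), and the third (221481_x_at) read 10831 on the CPEB4-labelled array and 10924.5 on the GFP array (−0.01). These 3 were level or slightly higher. At 221480_at HNRNPD read 1744 on the CPEB4-labelled array and 931 on the GFP array, a difference of 0.90 (1.87-fold), and this was the only kept member probe set higher by 1.5-fold or more. Neighbours in brightness did not share that value. Of these, 213359_at read 856 on the CPEB4-labelled array and 1178 on the GFP array (−0.46), and 229129_at read 1009 on the CPEB4-labelled array and 925 on the GFP array (0.13). The last kept probe set (227744_s_at) read 49.2 on the CPEB4-labelled array, under the filter, and 65.7 on the GFP array (−0.42). The gap of 1.37 equals the median gap of the 62 genes with 7 or more kept probe sets, to 2 decimals. That median also takes in dim probe sets, which vary more, while the HNRNPD probe sets at either end read 856 or more on both arrays. A gap of this size is thus not shown to be usual for probe sets as bright. Of the 9 HNRNPD probe sets, 2 lay under the filter on both arrays, reading at most 14.2.

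TIA1 and TIAL1, a pair of related proteins with RNA recognition motifs, were slightly higher at their brightest probe sets but differed in how well their probe sets agreed. TIA1 read 1169 on the CPEB4-labelled array and 1050.0 on the GFP array at its brightest (201448_at), a difference of 0.15. Its other 5 kept probe sets were all lower on the CPEB4-labelled array. Of these, 201450_s_at read 467 on the CPEB4-labelled array and 646 on the GFP array (−0.47), and 201447_at read 332 on the CPEB4-labelled array and 407 on the GFP array (−0.29). The next, 201446_s_at, read 298 on the CPEB4-labelled array and 357 on the GFP array (−0.26), and 201449_at read 301 on the CPEB4-labelled array and 330.1 on the GFP array (−0.13). The dimmest kept one, 1554890_a_at, read 72.3 on the CPEB4-labelled array and 106 on the GFP array (−0.55). The mean over the 6 was −0.26, so the direction of TIA1 is not settled. Its remaining probe set (1554889_at), at 54.5 on the CPEB4-labelled array and 4.73 on the GFP array, was under the filter on both.

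TIAL1, also called TIAR, was even across its kept probe sets. It read 5649 on the CPEB4-labelled array and 5143 on the GFP array at its brightest (202406_s_at), a difference of 0.14. The next (230350_at) read 591 on the CPEB4-labelled array and 567 on the GFP array (0.06), and the third (202405_at) read 572 on the CPEB4-labelled array and 491 on the GFP array (0.22). All 3 were higher, and their gap of 0.16 was smaller than the median gap of 0.66 over the 2899 genes with 3 or more kept probe sets. That median also takes in dimmer probe sets, which vary more. The last probe set (217500_at), at 4.69 on the CPEB4-labelled array and 5.66 on the GFP array, was under the filter on both.

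PUM2, a Pumilio-family repressor that binds mRNAs through a repeat domain and brings in the CCR4-NOT deadenylase, was lower at both of its kept probe sets. It read 2845 on the CPEB4-labelled array and 3661 on the GFP array at its brightest (216221_s_at), a difference of −0.36. The other (201493_s_at) read 2460.2 on the CPEB4-labelled array and 2891 on the GFP array (−0.23). The gap of 0.13 lay at the 14.9th percentile of the 6520 genes with 2 or more kept probe sets, which include dimmer ones that vary more. The third probe set (235995_at), at 3.02 on the CPEB4-labelled array and 23.7 on the GFP array, was under the filter on both.

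**Figure D2:**
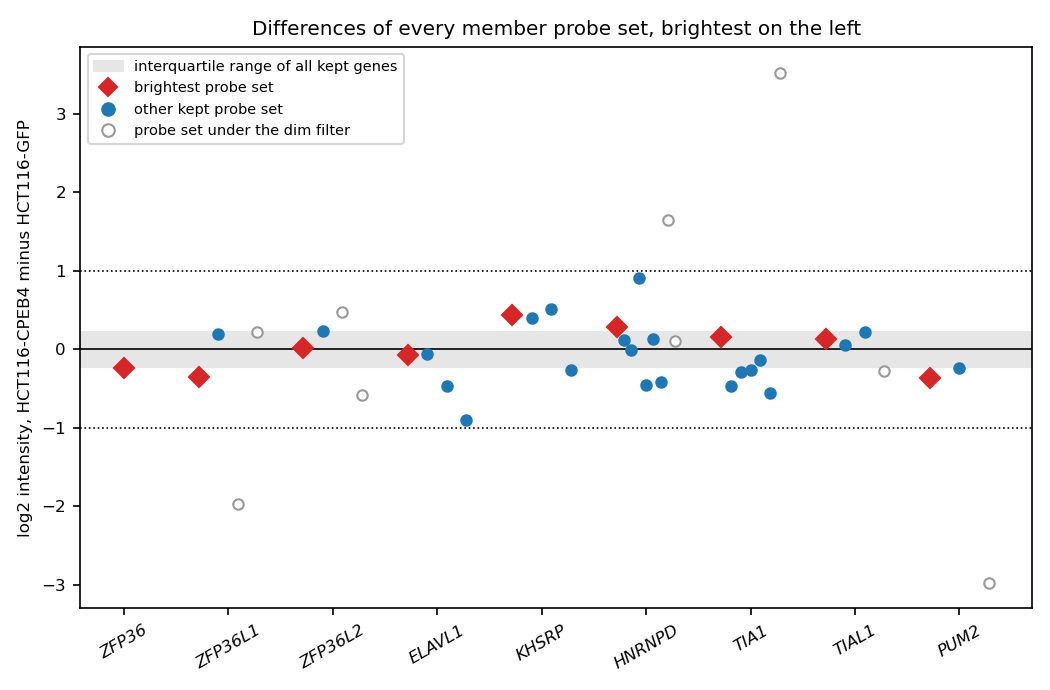
The log2 difference (HCT116-CPEB4 minus HCT116-GFP) of each member probe set, from the brightest on the left to the dimmest on the right within each gene. Red diamonds are the brightest probe sets, blue points the other kept ones and open points those under the dim filter, and the grey band is the interquartile range of all kept genes (−0.23 to 0.22). All filled points lie between the dotted lines at 2-fold, from −0.90 for ELAVL1 to 0.90 for HNRNPD.

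Probe sets of 1 gene therefore agreed in sign for some members and not for others. Of the 8 members with 2 or more kept probe sets, ZFP36L2, ELAVL1, TIAL1 and PUM2 had all of them on 1 side of 0, and ZFP36L1, KHSRP, HNRNPD and TIA1 did not. Over all genes with as many, 45.5% had all of them on 1 side. The 16 kept member probe sets with IDs ending in _s_at or _x_at had a median of −0.04, and the other 15 a median of −0.07.

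**Figure D3:**
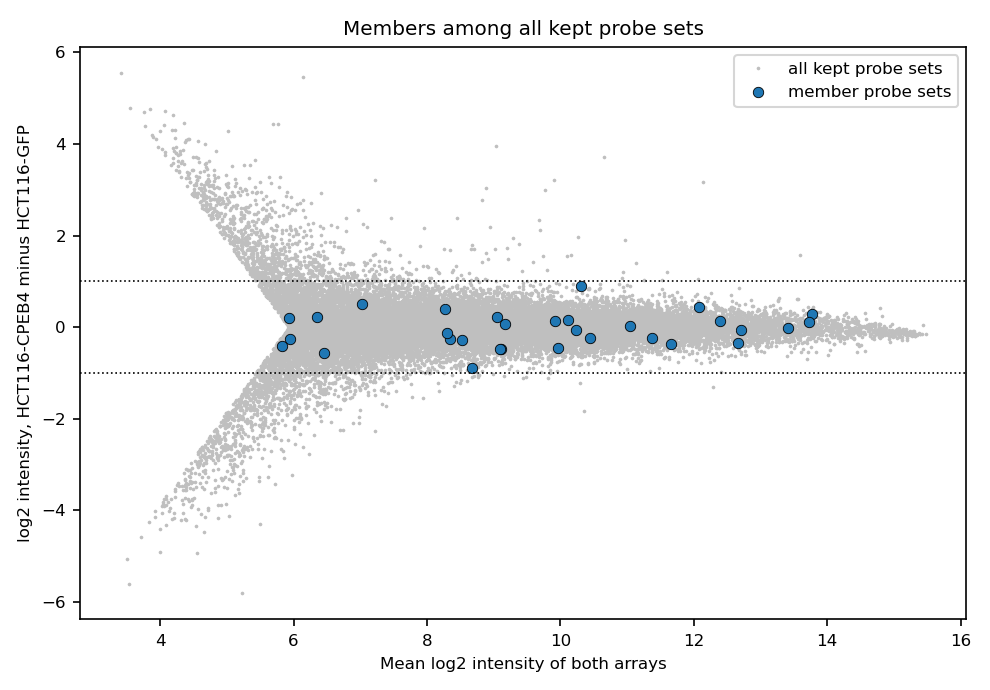
The log2 difference (HCT116-CPEB4 minus HCT116-GFP) against the mean log2 intensity of both arrays for the 25010 kept probe sets (grey) and the 31 kept member probe sets (blue). The dotted lines mark 2-fold, and all member points lie between them, most of them where the grey points are bright and narrowly spread.

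Because interferon-induced mRNAs differed so much between the arrays, the members' promoters were searched for the core of the interferon-stimulated response element, GAAA followed by any 2 bases and GAAA, on both strands, where matches may overlap. RefSeq promoters (GRCh38.p14, 250 bases before to 50 after each start) were given for 7 of the 9 genes, 11 promoters in all. Of these, 2 held the motif, 1 of HNRNPD and 1 of ZFP36L1, beside 3.57% of 35116 promoters. The windows below, each 30 bases with the motif in capitals, show these matches beside the 2 matches in the promoter of IFIT1, which was 3.72 higher (log2) on the CPEB4-labelled array.
HNRNPD (chr4:82374065-82374094, minus strand, the strand of the gene): gaccgaggagGAAAGGGAAAaaaaaaaaac
ZFP36L1 (chr14:68796234-68796263, plus strand, opposite to the gene): gtgcaaggggGAAAGTGAAAgtcttcggag
IFIT1 (chr10:89392497-89392526, minus strand, opposite to the gene): accgaaagggGAAAGTGAAActaaagctag
IFIT1 (chr10:89392510-89392539, minus strand, opposite to the gene): gaaacctaggGAAACCGAAAggggaaagtg
The 10 motif letters of ZFP36L1 are the same as in the first IFIT1 window and differ from the second, while HNRNPD has its match beside a run of A. ZFP36L1 read lower on the CPEB4-labelled array at its brightest probe set (−0.36) and HNRNPD read higher (0.28), against 3.72 for IFIT1. A match is a description of these letters, and binding was not measured.

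Other RNA-binding proteins of AU-rich, U-rich or Pumilio type lay mostly close to 0. Of 45 listed genes, 36 were measured, 14 above 0 and 22 below, with a median of −0.08, or 0.00535 when probe sets were averaged. By 1.5-fold, 2 were higher and 1 lower, beside 8.22% and 8.3% of all kept genes, and each of the 3 had an array under the filter. The other 33 measured genes reached the filter on both arrays, and the shares over all kept genes take in dimmer genes, which vary more. CELF2 read 135 on the CPEB4-labelled array and 53.5 on the GFP array (1.34), the neuronal HuR relative ELAVL4 read 89.4 on the CPEB4-labelled array and 55.6 on the GFP array (0.68), and the stem cell protein TRIM71 read 47.7 on the CPEB4-labelled array and 78.4 on the GFP array (−0.72). Among the bright ones whose probe sets share a sign, the KH-domain proteins MEX3C (−0.38) and IGF2BP3 (−0.33) were lower, and FXR2 (0.24) and HNRNPAB (0.12) were higher. The other probe set of MEX3C was at −3.56 and that of FXR2 at 0.76. MEX3A differed by −0.29, the Pumilio partner NANOS1 by −0.22 and RALY by 0.08. Close relatives of the members, named for that relation after their values were seen, were HNRNPDL (0.23), the KHSRP relatives FUBP1 (0.29) and FUBP3 (0.05), and PUM3 (0.00197), and the probe sets of HNRNPDL and FUBP1 went both ways. Of the 9 genes of this list not measured, 5 were under the filter and 4 are not analysed here.

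Partners and modifying enzymes of the members were spread around 0. Of 44 listed genes, 41 were measured, 20 above 0 and 21 below, with a median of −0.02. By 1.5-fold, 1 was higher and 1 lower, beside 8.22% and 8.3% of all kept genes, and by 2-fold 0 were, beside 3.55% and 3.85%. All 41 reached the filter on both arrays, while these shares take in dimmer genes, which vary more. Among probe sets with both arrays at or above 377, 1.84% were higher and 1.5% lower by 1.5-fold. The low counts are thus not shown to be particular to this list. The remaining 3 genes are not analysed here. CNOT3, a subunit of the CCR4-NOT complex, read 328 on the CPEB4-labelled array and 186 on the GFP array (0.82), with 0.08 at its other probe set. Of the deadenylases of the same complex, CNOT6 read −0.35 and CNOT6L −0.27. The others, named after their values were seen, were CNOT7 at 0.05, with probe sets from −0.37 to 0.22, and CNOT8 at −0.57, with probe sets up to 0.02. Also lower were the decapping factor DCP1A (−0.39), the deadenylase cofactor BTG1 (−0.37) and the HuR kinase CHEK2 (−0.35). The exosome subunits EXOSC10 (0.33) and EXOSC4 (0.29), the helicase DHX36 (0.21) and the 14-3-3 protein YWHAG (0.21) were higher. MAPKAPK2, the kinase that phosphorylates and inhibits tristetraprolin, read 522 on the CPEB4-labelled array and 822 on the GFP array (−0.65), the only gene of the list lower by 1.5-fold, and was named after its value was seen. Its 3 probe sets ran from −0.65 to 0.32, so its direction is not settled.

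mRNAs known to carry AU-rich elements went both ways. Of 45 listed genes, 38 were measured, 17 above 0 and 21 below, and the median was −0.10. That median was −0.15 with the filter raised to 377, −0.0573 when probe sets were averaged and −0.0417 with their median. By 1.5-fold, 4 were higher and 6 lower, beside 8.22% and 8.3% of all kept genes. By 2-fold, 2 were higher and 1 lower, beside 3.55% and 3.85%. Of the 38, 37 reached the filter on both arrays, while these shares take in dimmer genes, which vary more. On the CPEB4-labelled array CXCL2 read 235, against 84.8 for GFP (1.47), and CXCL1 read 349, against 130 for GFP (1.43). CXCL3 read 151, against 82.5 for GFP (0.87), and IL6 read 92.8, against 61.1 for GFP (0.60), at the edge of the filter. The chemokine gene CXCL8, named after its value was seen, read 273, against 267 for GFP (0.03). NFKBIA, the NF-kB inhibitor, differed by 0.49. The lower ones were led by the cytokine IL1B, which read 15.7 on the CPEB4-labelled array, under the filter, against 72.8 for GFP (−2.21). The survival gene BCL2 read 80.1, against 150.1 for GFP (−0.91), with −0.14 at its other probe set. Among transcription factors, EGR1 read 3254, against 5369 for GFP (−0.72), FOS read 237, against 366 for GFP (−0.63), and BHLHE40 read 1295, against 2130.2 for GFP (−0.72). Other transcription factors of the list, named after their values were seen, went both ways. JUNB was at 0.42 and ATF3 at 0.32, and MYC at −0.32, HIF1A at −0.24, KLF6 at −0.14 and FOSL1 at −0.11. JUN was at −0.08, with probe sets from −0.62 to −0.03. The cytokine LIF, named after its value was seen, read 771, against 1175 for GFP (−0.61). The part of mRNA stability in these values was not tested. Of the 7 genes not measured, 2 were under the filter and 5 are not analysed here.

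mRNAs listed as bound by human Pumilio proteins, from general knowledge of such targets, were mostly a little higher on the CPEB4-labelled array. Of 18 listed genes, all measured, 15 were above 0, beside 50.1% of all kept genes, with a median of 0.18. The list was chosen with earlier results of these data known, so this count is a description and not a test. By 1.5-fold, 1 was higher and 0 lower, beside 8.22% and 8.3% of all kept genes. All 18 reached the filter on both arrays, while these shares take in dimmer genes, which vary more. Among probe sets with both arrays at or above 377, 1.84% were higher and 1.5% lower by 1.5-fold. Of the 11 genes with several kept probe sets, 5 had them on both sides of 0. The gene past 1.5-fold is the S-phase cyclin CCNE2, which read 1652 on the CPEB4-labelled array and 992 on the GFP array (0.74), with 0.62 at its other probe set. The kinesin KIF11 differed by 0.34, CDCA2 by 0.26, the ubiquitin-conjugating enzyme UBE2A by 0.24 and CEP55 by 0.24. The other probe set of CDCA2 was at 0.62 and that of UBE2A at 0.00153. PARPBP (0.09), the cohesin subunit SMC3 (0.09), the cyclin-dependent kinase subunit CKS2 (0.09), the kinase TTK (0.08) and PCNA (−0.00066) were close to 0 at their brightest probe sets. Dimmer probe sets of PARPBP and of SMC3 reached 0.30. The other genes below 0, named after their values were seen, were DEPDC1 (−0.22) and ATXN1 (−0.30), and the probe sets of both went both ways. Most genes of this list act in DNA replication or mitosis, and PUM2 over the same arrays read −0.36. Their relation was not tested.

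**Figure D4:**
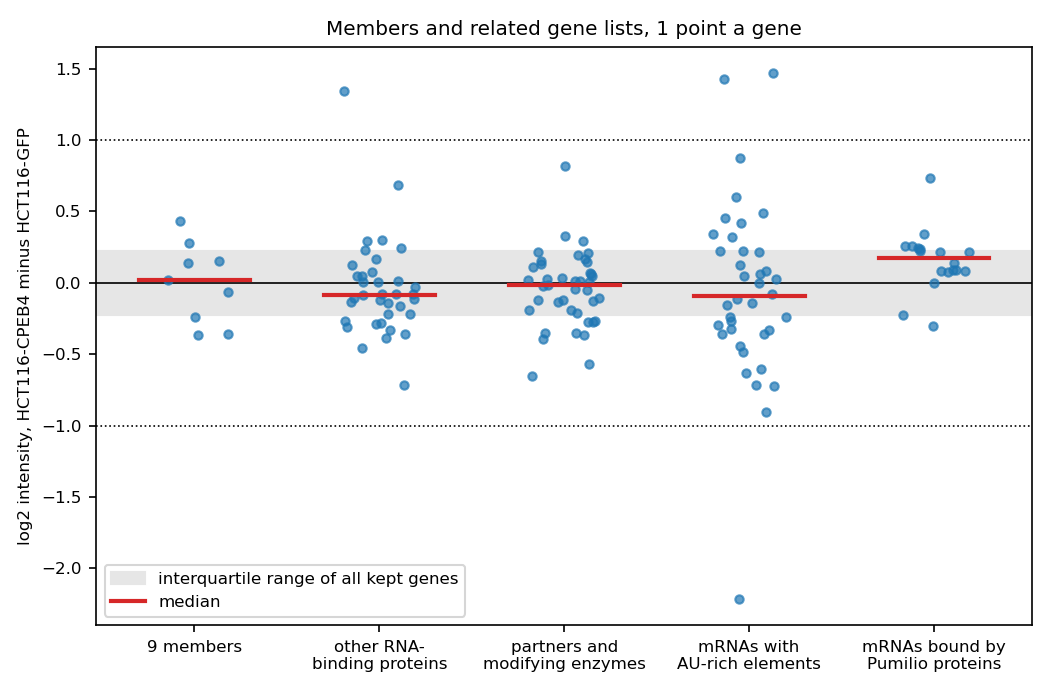
The log2 difference (HCT116-CPEB4 minus HCT116-GFP) of each measured gene at its brightest kept probe set, for the 9 members and the 4 related gene lists. Red lines are medians (0.02, −0.08, −0.02, −0.10 and 0.18 from left to right), the grey band is the interquartile range of all kept genes, and the dotted lines mark 2-fold.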

How the data were processed

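The table deposited by the authors holds linear intensities, 1 a probe set and array. The submitters' processing notes name Partek, with no role or version. The background correction, the summarisation of probes and the scaling were not stated there. Both arrays had a trimmed mean of 500.1 when 2% of values were removed at each end, which fits a common overall scaling that leaves differences with brightness in place. Detection calls were not used here. Gene names came from the platform's annotation, brought up to date through Entrez identifiers with RefSeq's table for GRCh38.p14, from which no gene position was used. Of 54675 probe sets, 41097 had 1 gene symbol, 1801 several and 11777 none, and 62 control probe sets were left out. Intensities were put on the log2 scale with no pseudocount (Python 3.11.15, numpy 2.4.6, pandas 2.3.3). A probe set was kept if its higher intensity reached the 50th percentile of all values, and a gene took its brightest kept probe set by mean log2 intensity. Folds of 1.5 and 2 are rules of size and not tests. Alternatives were tried for scaling, filter, pseudocount and choice of probe set. The steps were tested on simulated data. All members and all their probe sets were to be named, with CPEB4, the 5 highest and 5 lowest genes of each list whose kept probe sets share a sign, and any past 2-fold. Members and lists were chosen with earlier results of these data known.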

Additional observations from a re-analysis of the deposited data

How the results depend on the processing

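No paired analysis was possible because each group holds a single array. A value counted as moved when it shifted by more than the pooled SD between bright probe sets of a gene (0.21), divided for a list by the square root of its number of genes. Of 178 values under 10 alternatives, 164 did not move and 14 did. Reversal was defined only for main values of 1.5-fold or more, which no member or list median reached, so none could be called. Some of the values could not move. The filter alternatives left each member's brightest probe set in place, and ZFP36 has a single probe set, so the total is no measure of robustness. No scaling alternative moved a member. Quantile normalization gave KHSRP 0.43 and PUM2 −0.35, and loess on brightness gave 0.44 and −0.35. The rule for several probe sets mattered more. With their mean, ELAVL1 was −0.38, TIA1 −0.26, ZFP36L1 −0.0814 and the median of the members −0.0814. With their median, TIA1 was −0.28, ZFP36L1 −0.0814 and the median of the members −0.0814. Without IDs ending in _s_at or _x_at, HNRNPD was 0.90, so that 1 member passed 1.5-fold upwards, and ZFP36L1 was 0.19, while KHSRP and PUM2 had no value. The median of mRNAs with AU-rich elements was −0.15 under the stricter filter, −0.0573 with the mean and −0.0417 with the median over probe sets, and that of the other RNA-binding proteins was 0.00535 with the mean. The median of Pumilio-bound mRNAs ran from 0.13 to 0.19. Changes of sign were TIA1 and the members' median under the mean and the median over probe sets, ZFP36L1 without the IDs named above, the other RNA-binding proteins with the mean, and the partners with the median (0.00330).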
